A study of Mus musculus with 2 samples.

Results

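The genes described here encode the proteins of the cytosolic ribosome. They were chosen by symbol from the protein-coding genes of a RefSeq table of the mouse assembly GRCm38.p6: Rpl or Rps followed by a digit, plus Rplp0, Rplp1, Rplp2 and Rpsa, without the Rps6k kinase genes. The rule found 91 of the 21779 protein-coding genes kept, and it used no measured value. The label holds for the 77 of the 91 that are standard ribosomal subunit genes by symbol, and was not checked for the rest. The other 14 are 9 paralogs or binding proteins (such as Rpl3l, Rpl22l1 and Rps19bp1) and 5 retrogenes or genes with "-ps" in the symbol.

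The measurement was chromatin immunoprecipitation and sequencing (ChIP-seq) of STAT5, a transcription factor switched on by cytokine signals such as IL7. The cells were B cell progenitor leukemia cells from the lymph nodes of a C57BL/6 mouse of the genotype Stat5b-CAxBlnk+/-, that is, with a constitutively active Stat5b transgene and a single intact copy of the adaptor gene Blnk. They were given IL7 at 10 ng/mL for 30 minutes and fixed in 1% formaldehyde for 10 minutes. There was 1 STAT5 library and 1 input library of the same genotype and treatment, and no replicate. The sources used here do not give the mouse's age. A single leukemia was mapped, with no cells lacking the transgene and none without IL7, so no peak can be tied to the transgene, the Blnk mutation or the cytokine. The data are a list of 5908 peak intervals on build mm10 (the coordinates of GRCm38), 5901 of them on assembled chromosomes. Read depth is unknown. The list holds no peak height and no RNA level, so the identity of the cells could not be checked against marker expression, and the threshold for listing a peak is not stated in them. A gene with no peak in the list may therefore still be bound below that threshold.

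Ribosomal proteins fold around ribosomal RNA to build the small (40S) and the large (60S) subunit. Their genes are short and among the most strongly transcribed in growing cells, and their output is kept in step, in large part through a pyrimidine tract at the start of the messenger RNA that couples translation to mTOR signalling. Many of them carry small nucleolar RNA genes (snoRNA genes) in their introns. Loss of a single copy of some of them causes Diamond-Blackfan anemia, and some are mutated in lymphoid leukemia. STAT proteins bind as dimers to palindromic sites of the form TTCNNNGAA.

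A STAT5 peak lay across the annotated start of 3 ribosomal protein genes, Rpl18, Rps3 and Rps7. The letters of each peak that lie before the gene's start are printed to show what kind of sequence lies under a peak at a ribosomal gene. They come from RefSeq on GRCm38.p6 and read 5′ to 3′ toward the gene. For Rpl18, only the stretch between its start and that of the divergent neighbour Sphk2 is shown. Capitals mark matches, on either strand, to CCGGAA (the core of ETS factor sites) or to the STAT palindrome with 1 more letter in its gap, the spacing preferred by STAT6. None of these stretches held TTCNNNGAA.
Rpl18 (chr7:45718003-45718070, plus strand): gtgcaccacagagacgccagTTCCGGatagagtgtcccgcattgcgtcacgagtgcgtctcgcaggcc
Rps3 (chr7:99483710-99483777, minus strand): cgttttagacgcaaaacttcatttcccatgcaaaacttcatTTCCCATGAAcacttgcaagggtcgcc
Rps7 (chr12:28635954-28636074, minus strand): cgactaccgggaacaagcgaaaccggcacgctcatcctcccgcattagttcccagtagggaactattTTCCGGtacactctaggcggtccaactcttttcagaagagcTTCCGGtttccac

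Starts of neighbouring genes that lay under a peak were searched for the STAT palindrome in the same way. Of the peaks within 20 kb of a ribosomal protein gene, 11 reached into the 300 bp start window (250 bases before the start and 50 from it on) of the nearest other gene, and in 5 of these windows TTCNNNGAA lay within the peak. These 5 sites are printed with the palindrome in capitals and 10 letters on either side, read toward the neighbour, to set them beside the 3 ribosomal starts above.
Dbp, near Rpl18 (chr7:45705138-45705166, plus strand): atttttttttTTCCGCGAAagaagtttgc
Ifi35, near Rpl27 (chr11:101448409-101448437, plus strand): agaagcagaaTTCACAGAAatgaaagtgg
Micos13, near Rpl36 (chr17:56609816-56609844, minus strand): actaatacatTTCCCAGAAagaattgcgg
Surf6, near Rpl7a (chr2:26903076-26903104, minus strand): aggctccattTTCAGAGAAacgcctccag
Arl6ip1, near Rps15a (chr7:118129661-118129689, minus strand): ttggcccgacTTCCCAGAAgccggagtgc

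These windows were picked because a peak lies there, so the counts of 0 of 3 and 5 of 11 are descriptions. Other peaks within 1 kb of ribosomal genes were not searched at a ribosomal start. Rpl3, Rpl36 and Rps14 had no listed start, and the peak of Rpl36a lay outside its window. The Sphk2 window lay under the same peak as that of Rpl18, and the Micos13 peak was also counted for Rpl36. The search covered the part of a peak that lies in a window: 171 of 219 bp at Rps7 and 118 of 368 bp at Rps3. At Rpl18, the windows of Rpl18 and Sphk2 together covered the whole peak. A match is a run of letters and not a shown site of binding, and a missing match says only that these letters are not in the window. The other 6 neighbour windows, which had no TTCNNNGAA, were those of Flt3l, Sphk2, Wdr38, Catsperd, Pa2g4 and Cd79a.

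The number of ribosomal protein genes with a STAT5 peak depended on the distance allowed. A peak midpoint lay inside the gene or within 1 kb of it at 7 of 91 genes (7.69%, exact 95% interval 3.15 to 15.2), within 5 kb at 15 (16.5%, 9.53 to 25.7) and within 20 kb at 28 (30.8%, 21.5 to 41.3). The share of all 21779 protein-coding genes was 12.0% at 1 kb, 14.3% at 5 kb and 21.6% at 20 kb. At each of the 3 flanks the exact interval of the 91 genes held the share of all protein-coding genes, at 20 kb only narrowly (21.5 against 21.6%). The 91 genes could thus not be told from that background. The 77 standard subunit genes alone, a subset chosen after seeing the data, had a share of 35.1% within 20 kb (24.5 to 46.8). That interval lay above 21.6%. Within 1 and 5 kb their intervals (3.73 to 17.8 and 10.3 to 28.6) held the background. These intervals cover counting error only and take genes as independent, which neighbours that share a peak are not. With 1 library, none of these shares has a test between samples.

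The comparison depended on which genes the ribosomal ones were set beside. Ribosomal protein genes had a median length of 3175 bp (quartiles 2308.5 and 4560 bp), against 17217 bp for all protein-coding genes, and a longer gene has more room for a peak inside it. Among the 5526 protein-coding genes of at most 5814 bp (the 90th percentile of ribosomal gene length), 3.0% had a peak within 1 kb, 5.01% within 5 kb and 11.5% within 20 kb. Beside these short genes the ribosomal share was higher at each flank, at 1 kb with a lower limit (3.15%) only narrowly above 3.0%. The short genes included many olfactory and vomeronasal receptor genes and unnamed models. Without genes of the Olfr, Vmn, Gm and Rik series, 3445 short genes remained, of which 4.35%, 7.37% and 16.4% had a peak within 1, 5 and 20 kb. The ribosomal interval at 1 kb (3.15 to 15.2) held 4.35%, and those at 5 and 20 kb lay above these shares. Most ribosomal peaks beyond 1 kb were nearer to another gene, as given below.

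**Figure D1:**
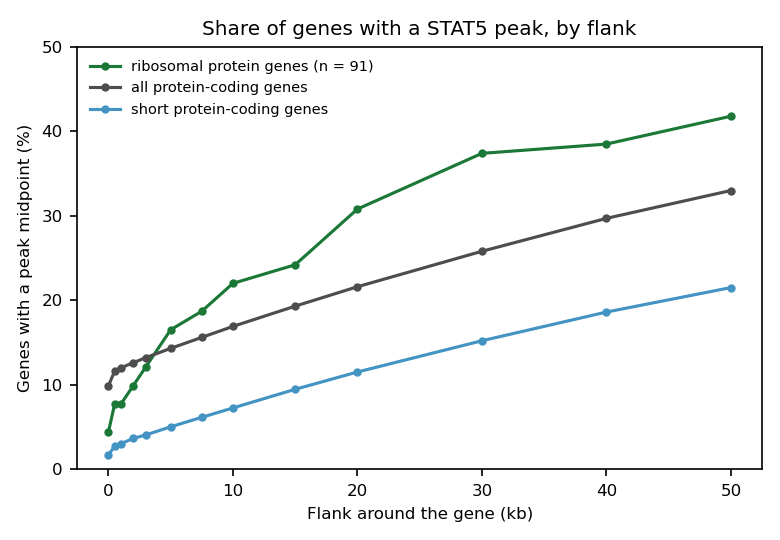
Share of genes (%, vertical axis) with a STAT5 peak midpoint inside them or within the flank on the horizontal axis (kb), for the 91 ribosomal protein genes, all 21779 protein-coding genes and the 5526 of at most 5814 bp. The ribosomal genes start below all protein-coding genes (4.40% against 9.85% inside the gene), pass them between 3 and 5 kb and stay above the short genes at every flank.

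Inside the gene, 4 ribosomal protein genes held a peak: Rpl18, Rps3, Rpl36a and Rps14. Rpl18, a 60S protein, had a 230 bp peak (chr7:45717932-45718161) whose midpoint lay 25 bp before its listed start. The peak counted as inside because the annotated gene interval (from 45715467) begins upstream of that start. That midpoint was also 44 bp before the start of Sphk2, a sphingosine kinase gene read in the opposite direction, so a single peak covered both starts. Rps3, a 40S protein at the entry channel for messenger RNA, had a 368 bp peak (chr7:99483410-99483777) with its midpoint 116 bp into the gene. The next protein-coding gene, Klhl35, was 9571 bp away.

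Rpl36a, a 60S protein, had a 228 bp peak (chrX:134586487-134586714) with its midpoint 946 bp past the start, inside the gene. It was 1 of 44 peaks on chromosome X, which carries 4 ribosomal protein genes by the rule. The nearest other gene was Gla, a lysosomal enzyme gene, at 1569 bp. Btk, a kinase gene of B cell receptor signalling, was 2972 bp away and is named here after its position was seen. Rps14, a 40S protein, had a 327 bp peak (chr18:60775575-60775901) with its midpoint 1142 bp from the nearer gene end. No other protein-coding gene lay closer than Ndst1, at 26703 bp. The table listed no start for Rps14, so the side of the gene is not given.

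Outside the gene but within 1 kb there were 3 peaks. Rps7, a 40S protein and a Diamond-Blackfan anemia gene, had a 219 bp peak (chr12:28635856-28636074) with its midpoint 12 bp before the start, and its nearest protein-coding neighbour, Colec11, was 12507 bp away. Rpl3, a 60S protein next to the peptidyl transferase centre, had a 236 bp peak (chr15:80083415-80083650) with its midpoint 126 bp outside the gene, and the neighbour Syngr1 was 7802 bp away. At Rpl36, a 60S protein, the midpoint of a 204 bp peak (chr17:56609747-56609950) lay 246 bp outside the gene but 77 bp before the start of Micos13, a gene of the mitochondrial inner membrane. That is 1 of the peaks with a STAT palindrome, its first letter 63 bases before the Micos13 start. Thus 6 of the 7 peaks at 1 kb were nearest to the ribosomal gene (85.7%, against 96.0% of such pairs for all protein-coding genes). A peak inside a gene has that gene as the nearest by definition, and 3156 of the 3740 pairs of all protein-coding genes are of that kind. From 1 bp to 1 kb outside, the ribosomal gene was the nearest in 2 of 3 pairs (66.7%), against 74.1% of 85 pairs of short genes. Of the 7 peaks, 2, at Rpl18 and Rpl36, also lay within 1 kb of the end of another gene.

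Between 1 and 5 kb there were 8 peaks, and 3 of them had the ribosomal gene as the nearest. These 3 lay beyond the end of the gene and not before its start. At Rpl28 (60S) the peak (chr7:4795923-4796333, 411 bp) was 1581 bp past the gene. At Rpl12 (60S, at the base of the stalk) it was 1684 bp past it (chr2:32965597-32965861, 265 bp). At Rps13 (40S) it was 2183 bp past it (chr7:116329195-116329453, 259 bp). The next protein-coding genes, Tmem238, Lrsam1 and Pik3c2a, were 6568, 4075 and 7941 bp from these midpoints.

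The other 5 peaks of that range belonged by position to a neighbour. The peak counted for Rpl27 (chr11:101448232-101448664, 433 bp), 2852 bp beyond that gene, lay inside Ifi35, an interferon-induced gene, 36 bp past its start. The peak counted for Rps15a (chr7:118119169-118119553, 385 bp), 3214 bp away, lay inside Arl6ip1, a gene of the endoplasmic reticulum. That of Rpl23a, 3716 bp away, lay inside Tlcd1. That of Rpl32l, 3535 bp away, lay inside Map7, a microtubule-binding protein gene that was 55984 bp from its nearer end at that point. That of Rpl35, 3574 bp away, lay 302 bp before the start of Wdr38.

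From 5 to 20 kb there were 21 peaks, and none had a ribosomal protein gene as the nearest. Of these, 11 lay inside another protein-coding gene and 6 more lay within 1 kb of a nearer one. The peak of Rps19, the gene most often mutated in Diamond-Blackfan anemia, was 7637 bp from it and 49 bp before the start of Cd79a, which encodes a signalling chain of the B cell receptor (chr7:24897335-24897562). The peak of Rpl13a, 7454 bp away, lay inside Flt3l, the gene of the FLT3 ligand, 233 bp past its start (chr7:45135868-45136530, 663 bp). All 3 peaks of Rps26, from 18683 to 19989 bp away, lay inside Ikzf4, an Ikaros family gene.

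Other peaks of this range lay at genes of wider roles. The peak of Rpl7a (7641 bp away) was 157 bp before the start of Surf6, a nucleolar protein gene. The peak of Rpl41 (16982 bp away) was 216 bp before the start of Pa2g4, a growth regulator that binds ribosomes. Of the more distant peaks of Rpl18, 1 was 187 bp before the nearest listed start of Dbp, a circadian transcription factor gene, and 1 was inside Car11. The second peak of Rps15a was 59 bp before the start of Arl6ip1.

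The remaining peaks of this range were also nearer to another gene. Those of Rpl23a (2 peaks) lay inside Nek8, that of Rpl27a inside Trim66, that of Rpl36 inside Catsperd, that of Rpl37 inside Card6 and that of Rplp0 inside Pxn. The peak of Rpl17 was 7 bp outside Dym. The nearest other genes of Rpl11, Rpl23 and Rpl24 were 10009 bp (Eloa), 5572 bp (Lasp1) and, for the 2 peaks of Rpl24, 13110 bp (Cep97) and 12102 bp (Gm6958) from the midpoint. These 4 peaks were thus at least 5572 bp from any protein-coding gene.

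**Figure D2:**
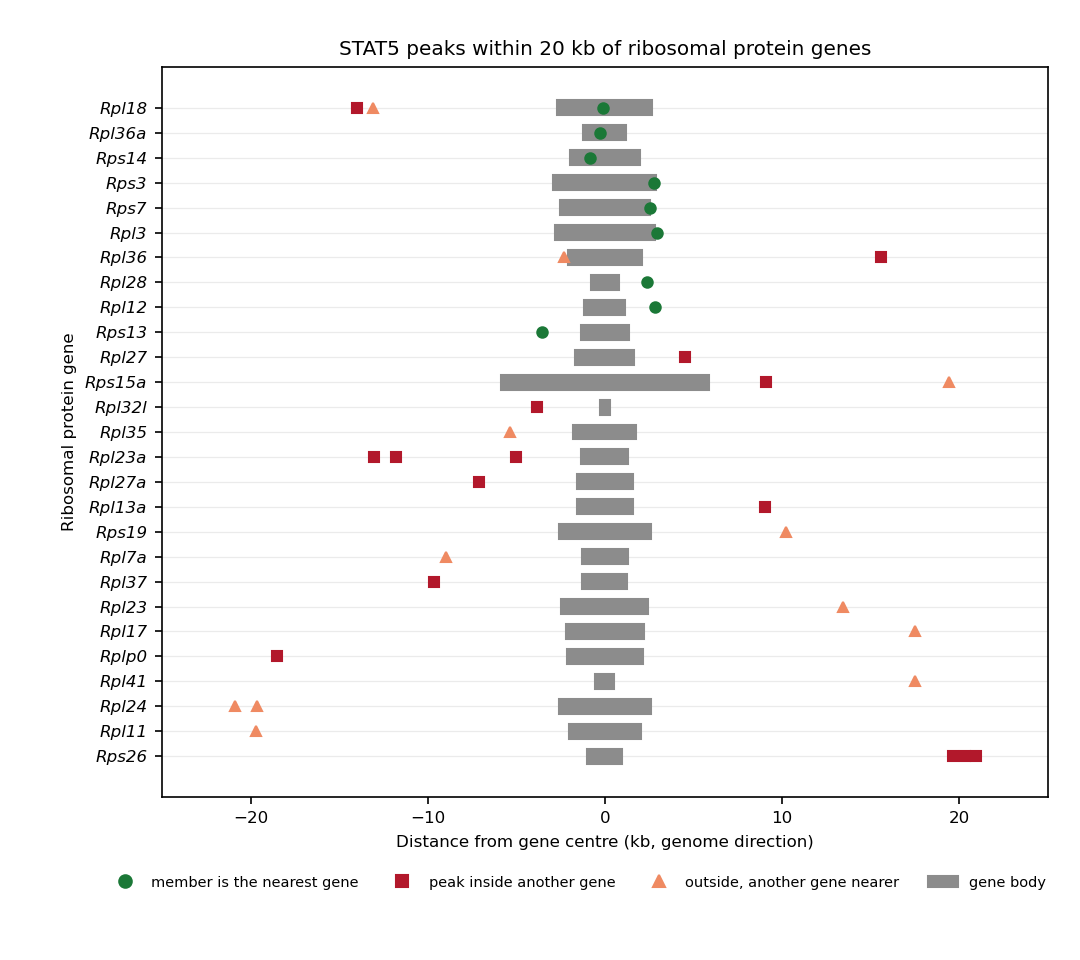
Of the 28 ribosomal protein genes with a STAT5 peak within 20 kb, 27 are shown, each drawn as a grey bar to scale and centred at 0, with peak midpoints at their distance in kb in genome direction. Green circles mark peaks for which the ribosomal gene is the nearest protein-coding gene, red squares those inside another gene and orange triangles those outside but nearer to another gene; all 9 green circles lie in the gene or within 2183 bp of it.

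Taken over all 36 peaks, the ribosomal gene was the nearest protein-coding gene for 9 (25%) and another gene for 27. Of the 28 genes counted at 20 kb, 9 had a peak nearest to themselves and 19 were counted only for peaks nearer to a neighbour. The share was lower with more distance allowed: within 5 kb the ribosomal gene was the nearest in 9 of 15 pairs (60%), against 88.8% for all protein-coding genes. In the 37 pairs of a ribosomal gene and a peak (a peak can be counted for more than 1 gene) the gene was the nearest in 24.3%, against 65.3% of 7172 pairs of all protein-coding genes and 36.1% of 866 pairs of the short genes. The shares for all genes, also that within 5 kb, are high because 3156 of the pairs are peaks inside the gene. By distance, the ribosomal gene was the nearest in 3 of 8 pairs at 1 to 5 kb (37.5%; 43.8% for short genes) and in 0 of 22 pairs at 5 to 20 kb (16.9% for short genes). A count of 0 in 22 pairs allows a share of up to about 13.6% by counting error alone. This limit is the approximate one of 3 counts in 22 pairs and not an exact interval, and some of the pairs share a gene or a peak.

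**Figure D3:**
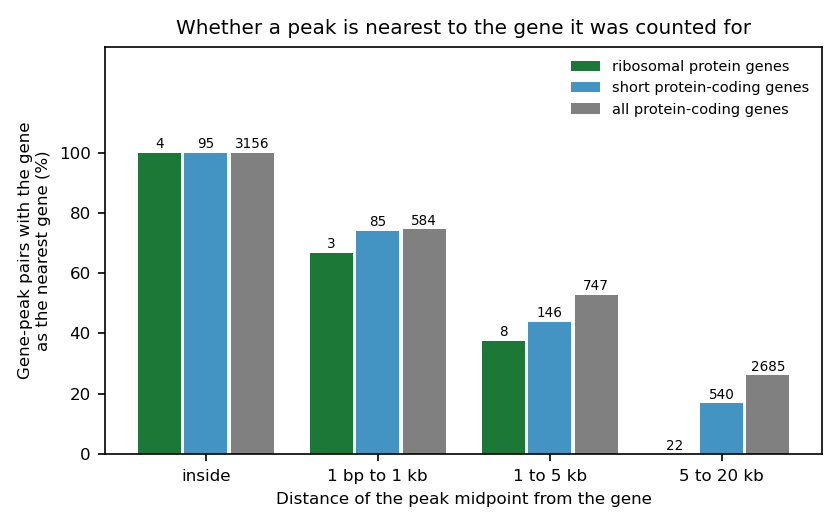
Share of gene-peak pairs (%, vertical axis) in which the gene is the nearest protein-coding gene to the peak, by distance of the midpoint from the gene, for ribosomal protein genes, the short protein-coding genes and all protein-coding genes, with the number of pairs above each bar. The share is lower farther from the gene in each set and is 0 of 22 pairs for the ribosomal genes at 5 to 20 kb.

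Ribosomal protein genes had a median of 2 other protein-coding genes within 20 kb, against 1 for all protein-coding genes and 1 for the short ones. Of the 30 ribosomal genes with at most 1 such neighbour, 7 had a peak within 20 kb (23.3%), against 6.00% of short genes with as few. Of the 47 with 2 or 3 neighbours, 13 had one (27.7%, against 15.2%), and of the 14 with 4 or more, 8 had one (57.1%, against 23.1%). The share was thus higher with more neighbours in both sets, without a test of the difference. The exact 95% intervals of the ribosomal genes were wide: in the same order 9.93 to 42.3, 15.6 to 42.6 and 28.9 to 82.3. Each lay above the share of short genes with as many neighbours, at 2 or 3 neighbours only narrowly. These short genes include the receptor genes and unnamed models.

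Counted from the start alone, the ribosomal genes with a listed start were close to the background. Of the 7 genes with a peak within 1 kb of the gene, Rpl3, Rpl36 and Rps14 had no listed start and were left out. A start was listed for 70 of the 91. A peak midpoint lay within 1 kb of a listed start at 4 of them (5.71%, exact 95% interval 1.58 to 14), Rpl18, Rps3, Rps7 and Rpl36a, against 4.84% of 17492 protein-coding genes with a listed start. Among the 28 pairs within 20 kb whose gene had a listed start, the peak was inside the gene in 3 (with Rpl18), before the start in 18 and beyond the end in 7. Of the 18 before the start, 15 lay 5 to 20 kb away, where no ribosomal gene was the nearest. At 1 to 5 kb, 2 lay before the start and 5 beyond the end. No background was counted for these sides.

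By subunit, 4 of the 46 standard genes of the large subunit (8.70%, exact 95% interval 2.42 to 20.8) and 3 of the 31 of the small subunit (9.68%, 2.04 to 25.8) had a peak within 1 kb, against 12.0% of all protein-coding genes. Within 20 kb these were 19 of 46 (41.3%, 27 to 56.8) and 8 of 31 (25.8%, 11.9 to 44.6), against 21.6%. At 20 kb the interval of the large subunit lay above the share of all protein-coding genes, and that of the small subunit held it. The standard subset was chosen after seeing the data. Of the 28 ribosomal genes counted at 20 kb, 19 were counted only for peaks nearer to a neighbour. The difference between the subunits was not tested. Of the P stalk genes, which recruit the GTPases of translation, Rplp0 had a peak 16390 bp away, inside Pxn, and Rplp1 and Rplp2 had none within 20 kb. Rpl5 and Rpl11 form the 5S particle, which binds Mdm2 and so stabilises p53. Rpl11 had its nearest peak 17696 bp away and Rpl5 161436 bp away.

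Of the 9 Diamond-Blackfan anemia genes on the list, 1 had a peak within 1 kb (Rps7) and 4 within 20 kb (Rps7, Rps19, Rps26 and Rpl11). The exact 95% intervals, 0.281 to 48.2% and 13.7 to 78.8%, held the 12.0% and 21.6% of all protein-coding genes. Of these 4, only the peak of Rps7 was nearest to the ribosomal gene. Among those with none within 20 kb were Rps10, Rps24, Rpl5 and Rpl35a. Of the 5 genes mutated in lymphoid leukemia, none had a peak within 5 kb, and Rpl11 alone had one within 20 kb (exact 95% interval 0.505 to 71.6%, against 21.6% of all protein-coding genes). The nearest peaks of Rpl22, Rpl10 and Rps15 were 94311, 1109619 and 26401 bp away. Of the 9 paralogs and binding proteins, Rpl32l had the single peak within 20 kb (0.281 to 48.2%), and the 5 retrogenes and "-ps" genes had none. Lists of this size could not be told from the background.

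The 63 genes without a peak within 20 kb were spread over near and far distances. Rps18, the closest of them, had its nearest peak at 23406 bp, while that of Rps4x, on chromosome X, was 1792077 bp away. Within 50 kb, 38 of the 91 (41.8%) had a peak, against 33.0% of all protein-coding genes and 21.5% of the short ones. The median distance from a ribosomal protein gene to the nearest peak was 74002 bp, against 117631 bp for all protein-coding genes and 207577.5 bp for the short ones. At the thresholds, Rpl36 at 246 bp and Rpl28 at 1581 bp were the last within and the first beyond 1 kb. Rpl23a at 3716 bp and Rpl27a at 5508 bp bounded 5 kb, and Rps26 at 18683 bp and Rps18 bounded 20 kb. SnoRNA genes lay inside 30 of the 91 genes, and 2 of these 30, Rpl3 and Rps3, had a peak within 1 kb (6.67%, exact 95% interval 0.818 to 22.1), against 7.69% of all 91 and 12.0% of all protein-coding genes.

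By median, the peaks inside or within 1 kb of the ribosomal genes were narrower than the list, and those farther out slightly wider. These few widths were not tested. The 4 peaks inside the genes had a median width of 278.5 bp, the 3 within 1 kb 219 bp, the 8 at 1 to 5 kb 320 bp and the 21 at 5 to 20 kb 302 bp, against 295 bp for the whole list. The lines of the list stood in an order whose key is not stated. Of the 7 peaks at 1 kb, 3 stood among the first 2954 lines, the peaks of Rps14, Rps3 and Rpl18 at places 1363, 1364 and 2745. The earliest peaks within 20 kb of any ribosomal gene were those inside Ikzf4 (place 63) and Flt3l (75), 1 between genes at 17062 bp from Rpl24 (254) and that inside Ifi35 (320). Each was nearer to another gene.

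The starts of the ribosomal genes were searched for 7 motifs on both strands in the 300 bp windows (82 windows of 70 genes, set beside 21263 windows of protein-coding genes). TTCNNNGAA was found in 4 windows (4.88%, against 7.69% of all), those of Rpl36al, Rpl35, Rplp0 and Rpl4. None of these 4 genes had a peak within 1 kb. As 7.69% of the 91 genes and 12.0% of all protein-coding genes had one, none in 4 says little. The peaks counted for Rpl35 and Rplp0 lay at Wdr38 and inside Pxn. The palindrome with 1 more letter in its gap was found in 6.10% (against 6.35%) and CACGTG, the E-box bound by MYC, in 9.76% (against 7.84%).

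Letters of other factors were more frequent at the ribosomal starts than at all starts. CCGGAA, the ETS core, was found in 37 of 82 windows (45.1%, against 18.7%). GATGGC, the core bound by YY1, was found in 24.4% (against 13.5%) and GGGCGG, bound by SP1, in 57.3% (against 46.2%). TATAAA was found in 11% (against 12.6%). Matches of the motifs may overlap, as those of either palindrome and of CCGGAA can. The median share of G or C letters was 57.8% at the ribosomal starts (quartiles 52.8 and 62.3%) and 56.3% at all starts (48.3 and 64.7%). None of these differences was tested. A run of at least 5 C or T letters covered the annotated start in 28.0% of the ribosomal windows, against 8.59% of all, and the first letter was C in 30.5%, against 13.8%. Windows of 1 gene with several starts overlap, so the shares carry no interval.

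**Figure D4:**
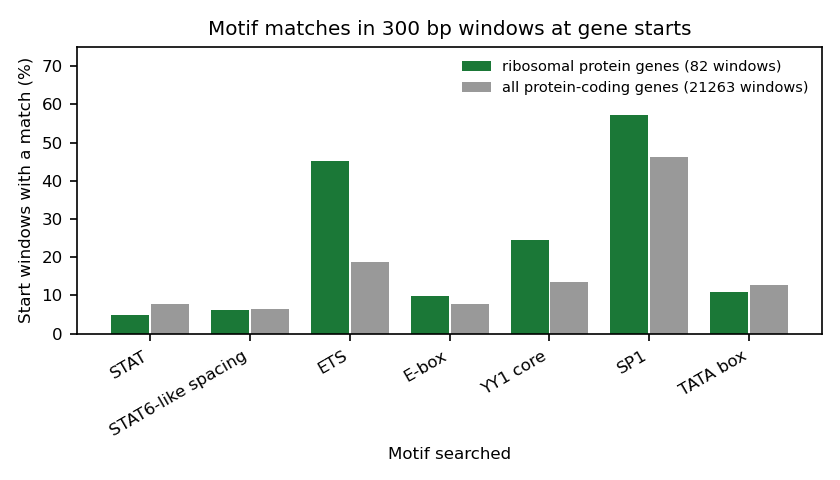
Share of start windows (%, vertical axis) with at least 1 match to each motif on either strand, for 82 windows of ribosomal protein genes and 21263 windows of all protein-coding genes. The ETS letters stand at 45.1% against 18.7%, while the STAT palindrome stands at 4.88% against 7.69%.

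Other genes of the translation machinery were counted in the same way. Mitochondrial ribosomal protein genes had a peak within 1 kb in 6 of 78 cases (7.69%), the same share as the cytosolic ones. Within 20 kb they had one in 12 (15.4%, exact 95% interval 8.21 to 25.3, which held the 21.6% of all protein-coding genes). Those at 1 kb were Mrpl30, Mrpl22, Mrpl38, Mrpl11, Mrpl16 and Mrpl37.

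Initiation factor genes had a peak within 1 kb in 7 of 52 cases (13.5%), among them Eif4a2, a helicase, and Eif2s1, a subunit of the factor that brings the initiator tRNA. Within 20 kb they had one in 14 (26.9%, exact 95% interval 15.6 to 41.0, which also held 21.6%). Of 7 genes with an elongation factor symbol, 1 had a peak within 1 kb. It was Eef1e1, whose product is a part of the aminoacyl-tRNA synthetase complex rather than an elongation factor. RNA polymerase I genes had one in 3 of 11 (27.3%, exact 95% interval 6.02 to 61.0), which were Ubtf and Rrn3, both needed to start ribosomal RNA synthesis, and the subunit gene Polr1d. Ribosome assembly genes had one in 4 of 30 (13.3%: Nop58, Bop1, Gar1 and Nop2), and ribosomal protein kinase genes in 1 of 10 (Rps6ka2). The exact intervals of all these lists at 1 kb held the background of 12.0%. These genes were not matched in length, and no difference between the lists was tested.

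**Figure D5:**
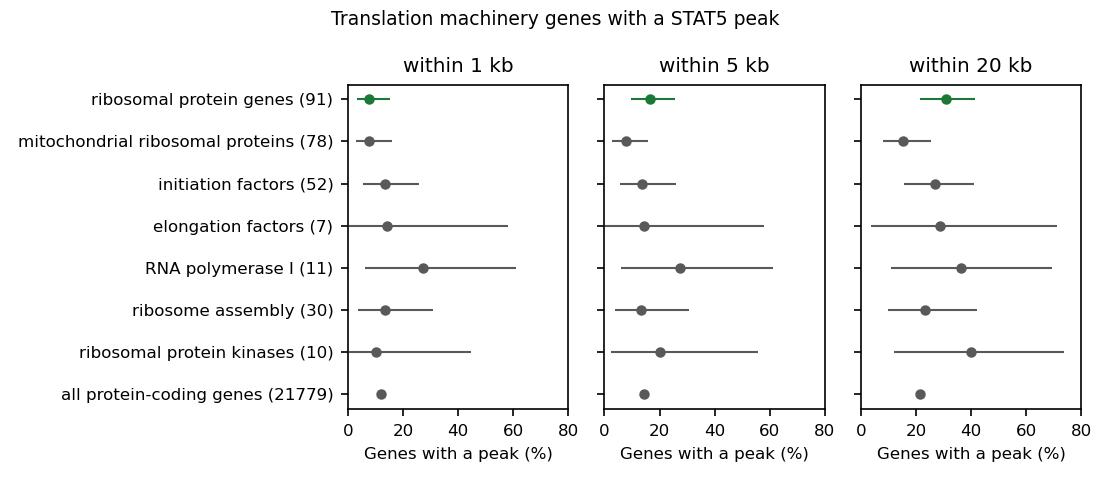
Share of genes (%, horizontal axis) with a STAT5 peak within 1, 5 and 20 kb for lists of translation machinery genes, with the number of genes in brackets and exact 95% binomial intervals as bars. The cytosolic ribosomal protein genes go from 7.69% to 30.8% across the panels, the mitochondrial ones from 7.69% to 15.4% and all protein-coding genes from 12.0% to 21.6%.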

How the data were processed

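One peak list from 1 STAT5 ChIP library was used, and the input library has no list of its own here. Per the submitters' processing notes, BWA 0.7.4, Picard, MACS2 and the build mm10 were used, without a stated role. The deposited file gives peak start and end positions in bp and no count, score or p-value, so read depth is unknown. Starts were made 1-based, and a peak was placed by its midpoint. Genes came from RefSeq (GRCm38.p6) on chromosomes 1 to 19, X and Y. Genes starting below 3000000 bp, except on Y, were left out as unplaced, which kept 21779 protein-coding genes of 49603. Starts, strands and sequences came from a RefSeq start table that held 70 of the 91 members, matched by gene ID. Distances were taken to the gene body (0 inside). Shares carry exact (Clopper-Pearson) 95% intervals from SciPy 1.17.1 under Python 3.11.15. The placement of peaks was tested on simulated data. The members and lists were chosen with earlier results of these data known. Genes were named when a peak lay within 5 kb, or as the nearest gene to a peak within 20 kb. Members without a peak were named in role groups or at a threshold. Alternatives changed the placement, peaks, members, flanks and background. The values of some genes are not reported here. With 1 library no test between samples was possible.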

Additional observations from a re-analysis of the deposited data

Results flagged for a closer look

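On unplaced scaffolds of the assembly, 7 peaks were listed. They entered none of the counts of ribosomal protein genes, which all lie on assembled chromosomes, and are given here as data that the comparisons did not use.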

How the results depend on the processing

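The number of ribosomal protein genes with a peak kept within 1.5 times under placement by any overlap of 1 bp (7, 15 and 28 genes at 1, 5 and 20 kb), without paralogs, binding proteins and Rps4x (7, 14 and 27) and, an alternative chosen after seeing the data, for standard subunits alone (7, 14 and 27). A flank of 50 kb gave 38 genes. In the first 2954 lines of the list the counts were 3, 9 and 15 (background 6.51%, 7.81% and 12.2%), and in the wider peaks (at least 295 bp) 2, 7 and 15 (background 6.52%, 7.78% and 12.2%); the cause was not tested. Counting from a listed start gave 4 genes, over the 70 that have one. The number of peaks nearest to a ribosomal protein gene was 9 by gene body, by gene end, against all annotated genes, within 5 kb and by peak edge. By gene end, 8 of the 9 were the same peaks: the peak at Rpl18 went to Sphk2, and that near Rpl32l, inside Map7, went to Rpl32l. The background share was 12.0%, 14.3% and 21.6% at 1, 5 and 20 kb over all protein-coding genes, 3.0%, 5.01% and 11.5% among those of at most 5814 bp, and 13.7%, 16.2% and 24.4% without Olfr, Vmn, Gm and Rik genes. No paired analysis was possible because there was 1 ChIP library and its list has no replicate. Depth is unknown, so a missing peak may be one that was not detectable.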

Other observations

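Ribosomal protein genes have many processed copies in the mouse genome, and reads from near-identical sequence can be placed at a gene or at its copies. Of 318 pseudogenes with a ribosomal protein symbol and "-ps", 1 had a peak within 1 kb (0.314%, exact 95% interval 0.00796 to 1.74), against 0.609% of 10510 pseudogenes of all kinds. That pseudogene was Rps27a-ps1 on chromosome 1, and Rps27a itself had its nearest peak 618375 bp away. Within 20 kb, 33 of the 318 had a peak (10.4%, 7.25 to 14.3), against 6.86% of all pseudogenes. The sources used here do not give how reads of such copies were placed.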
